A study of Mus musculus with 26 samples.

Results

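The integrin and laminin genes were followed in motor neuron spheroids that had been moved by a magnetic matrix or kept in media from the biochemical arm of the same study. The genes were taken by symbol from the deposited count table: every row with the biotype protein_coding named as an integrin α subunit (18 genes), an integrin β subunit (8 genes) or a laminin chain (11 genes), which gave 37 of 56941 rows. No measured value entered that choice. The study set out to tell apart what movement and what muscle-derived factors each do to motor neurons. Total RNA was sequenced from 26 libraries in 5 groups.

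The cells of all groups were HBG3 mESC HB9::GFP, mouse embryonic stem cells in which the promoter of the motor neuron factor HB9 drives GFP (genotype given as heterozygous blastocysts). The stem cells had been expanded on a feeder layer with mLIF, then differentiated with retinoic acid and purmorphamine, and given ciliary and glial derived neurotrophic factors from day 5. Fibrin carried the resulting spheroids, which were about 8 days into differentiation. The actuated array group (n = 4) lay on a magnetic silicone array that was moved at 4 Hz for 30 min every day, and the static array group (n = 4) lay on such an array that was not moved. The biochemical arm held a high intensity group (n = 6), a low intensity group (n = 6) and 6 biochemical control libraries. For this arm the design text speaks of medium kept on optogenetic muscle cells with or without optical stimulation, but its sample names are not those of the labels. The groups are therefore called by intensity only. It is assumed here that muscle-conditioned medium was given to both intensity groups and was not given to the controls. The line is 1 stem cell line, and the labels do not say whether the libraries of a group came from separate cultures, so p-values measure only the spread between these libraries, which may be technical.

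Integrins are receptors made of an α and a β subunit that span the membrane and tie the extracellular matrix to actin through talin and kindlin. Laminins are trimers of an α, a β and a γ chain that form the scaffold of basement membranes, and growth cones of motor axons use laminin and fibronectin as substrates. Integrins with α3, α6 or α7 bind laminin, those with α1, α2, α10 or α11 bind collagen, those with α5, α8, αv or αIIb recognise the RGD motif of fibronectin, vitronectin or fibrinogen, and β2 integrins belong to leukocytes. Fibrin, on which the spheroids lay, is itself a ligand of RGD-binding integrins.

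Promoters were read for the members that stood higher in both intensity groups than in the controls at an unadjusted p under 0.05: Itga5, Itga7, Itgb1, Itgb3, Itgb5, Lama5, Lamb1, Lamb3 and Lamc1. The RefSeq table (build GRCm38.p6) held 23 of the 37 members, and 3 of these 9 are printed, those of smallest p among the ones with a single window in the table. Each window is the 250 bases before the annotated start on the gene's own strand, from chr8:128685404-128685653 (Itgb1, plus strand), chr12:31265043-31265292 (Lamb1, plus strand) and chr15:103366792-103367041 (Itga5, minus strand). Capitals mark GGGCGG, the GC box read by Sp factors (CCGCCC where it lies on the other strand), GGAATG, the core read by TEAD factors, and CCAAT.
Itgb1: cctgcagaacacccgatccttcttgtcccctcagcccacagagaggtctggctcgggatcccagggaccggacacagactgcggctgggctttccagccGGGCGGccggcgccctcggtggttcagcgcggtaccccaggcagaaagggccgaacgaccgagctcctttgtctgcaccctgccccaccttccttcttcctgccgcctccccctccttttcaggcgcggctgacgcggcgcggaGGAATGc
Lamb1: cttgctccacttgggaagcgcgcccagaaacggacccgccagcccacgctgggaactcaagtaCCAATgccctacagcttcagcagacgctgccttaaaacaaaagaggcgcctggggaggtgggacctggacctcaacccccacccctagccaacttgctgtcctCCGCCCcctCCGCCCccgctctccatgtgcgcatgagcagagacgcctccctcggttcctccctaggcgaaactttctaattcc
Itga5: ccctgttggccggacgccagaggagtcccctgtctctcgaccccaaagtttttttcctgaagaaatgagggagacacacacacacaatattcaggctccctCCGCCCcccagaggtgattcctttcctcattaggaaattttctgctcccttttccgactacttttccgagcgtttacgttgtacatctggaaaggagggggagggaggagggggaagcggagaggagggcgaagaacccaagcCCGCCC
The GC box stood at bases -151 to -146 in Itgb1, at -84 to -79 and -75 to -70 in Lamb1, and at -149 to -144 and -6 to -1 in Itga5, where -1 is the base before the start. GGAATG stood at -7 to -2 in Itgb1 and CCAAT at -187 to -183 in Lamb1, and no marked motif overlapped another. On both strands of all 32851 windows of this length, GGGCGG was in 32.7%, CCAAT in 33.8% and GGAATG in 12.6%. Counted by gene, GGGCGG was in 8 of the 23 members against 35.4% of all genes. CCAAT was in 4 of 23 against 37.5%, and GGAATG in 3 of 23 against 14.4%. The AP-1 motif TGANTCA (6.75% of windows) and TATAAA (12.4%) were also searched and were not in these 3 windows. The GC content was 68.0% for Itgb1, 62.0% for Lamb1 and 55.6% for Itga5, against a median of 52.4% over all windows. These matches describe the sequence and say nothing about which factor was bound.

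Depth set which libraries could be used. In 5 libraries fewer than 1000000 counts lay on protein-coding genes (static array 3, low intensity 6, control 4, high intensity 4 and high intensity 5), and the main fit used the other 21. Their total counts were 7269276 to 13162635 on the arrays and 1551334 to 3971348 in the biochemical arm. A count of 0 then allowed up to 0.228 to 0.413 counts per 1000000 (CPM) on the arrays and up to 0.755 to 1.93 CPM in the biochemical arm, for counting error only. Motor neuron markers were present in all groups, with 8 of 8 above 0 in some library of each. Their summed level was 373 to 866 CPM, most of it Prph (298 to 738 CPM), followed by Slc18a3. The identity factors were low: Lhx3 had a mean of 1.24 CPM in the controls. Isl2 was above 0 in 2 of 5 control and 2 of 5 low intensity libraries. Astroglial Gfap was also abundant (1220 to 2900 CPM), and the 5 stem cell markers summed to 2.69 to 18.7 CPM, led by Esrrb (2.69 to 16.8 CPM), with Pou5f1 at most 1.77 CPM. The 6 endothelial markers summed to 0.68 to 34.8 CPM, with Kdr up to 20.7 CPM, Cdh5 up to 17.2 CPM and Cldn5 at most 0.391 CPM.

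The adhesion receptors of these spheroids were dominated by Itgb1 and Itgav, and their laminins by Lamc1. On the per-length scale of the deposited TPM values (transcripts per 1000000), the mean over the 21 libraries was 80.9 for Itgb1, the shared β1 subunit, 62.9 for Lamc1, the common γ1 chain, and 55.3 for Itgav. These were followed by Itga3 (27.4 TPM), Itga6 (20.5 TPM), Lamb1 (19.6 TPM), Itgb5 (16.5 TPM), Lamb2 (15.3 TPM) and Itgb8 (14.4 TPM). The SD over libraries was 33.1 TPM for Itgb1, 28.2 TPM for Lamc1, 16.1 TPM for Itgav, 11.6 TPM for Itga3 and 7.51 TPM for Itga6, and neighbours among these 9 genes differed by less than the larger of their SDs, apart from the step from Itgav to Itga3. At least 10 TPM was reached by 9 members, 17 lay between 1 and 10 TPM and 11 lay under 1 TPM.

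Of the 24 known αβ pairs, 16 had both subunits at 1 TPM or more in the mean over libraries, and 13 did so in each of the 5 groups. The count per group is affected by the lower TPM scale of the controls described below. Itgb3 had 0.924 TPM there and 1.13 TPM on the static array, at 6.6 and 5.8 CPM. Itga4 and Itgb7 are among the 16, though the Itgb7 mean of 4.75 TPM came mainly from low intensity (17.9 TPM). The β1 subunit had 10 of its 12 partners at that level, the exceptions being the collagen receptors Itga10 (0.184 TPM) and Itga11 (0.28 TPM). The αv subunit had 4 of 5 partners, with Itgb6 at 0.596 TPM. Leukocyte integrins were near the limit of detection: Itgal, Itgam, Itgax and Itgae had means of 0.0185 to 0.0584 TPM, and Itgad had 0 counts in all 26 libraries, which allows up to 0.0277 CPM over the series. The presence of both transcripts does not show that a pair was formed.

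**Figure D1:**
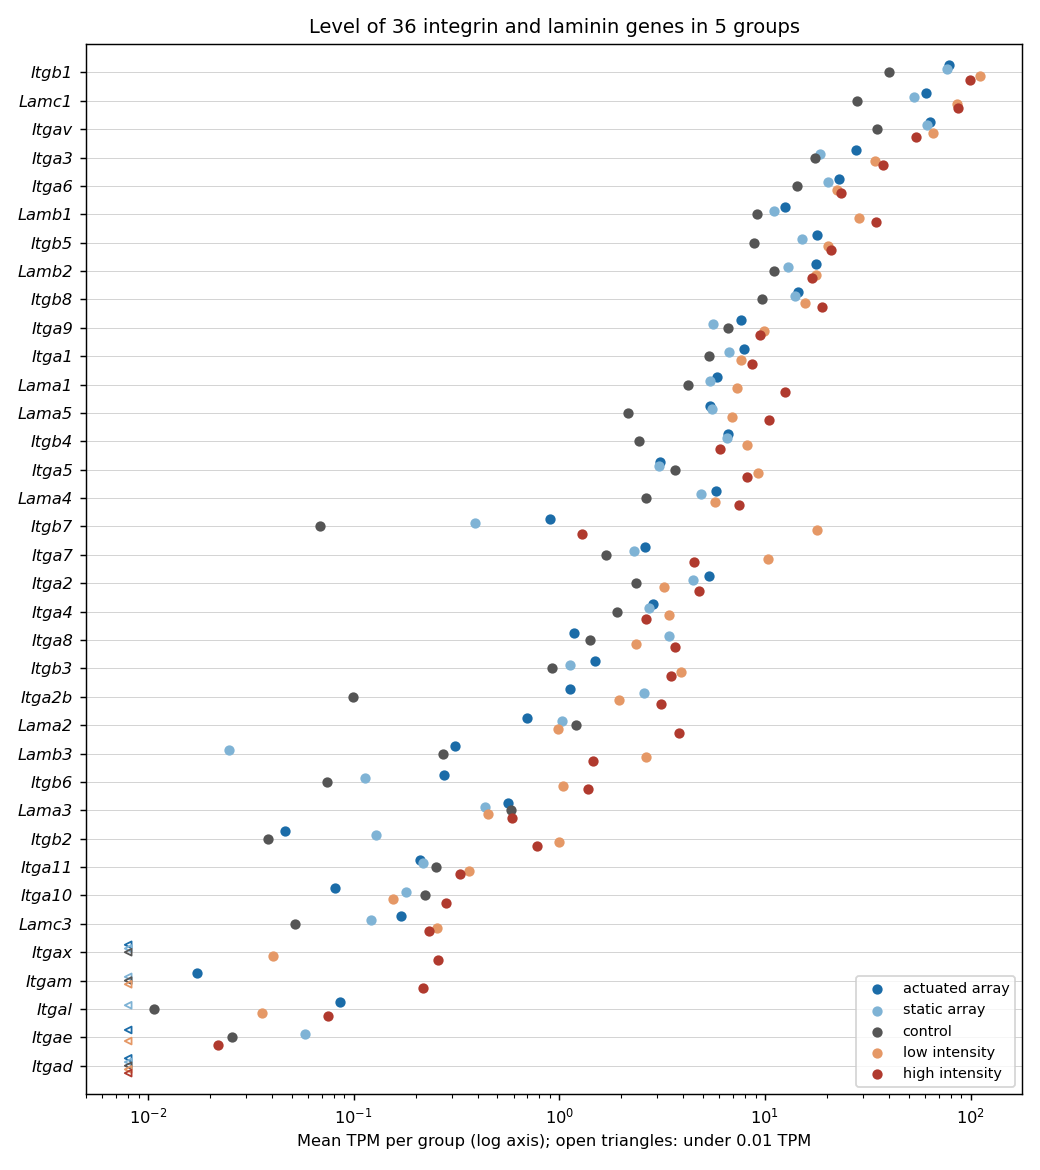
Mean TPM of 36 integrin and laminin genes (rows, in order of their mean over 21 libraries) on a log axis, with 1 point per group and open triangles for means under 0.01 TPM. Itgb1, Lamc1 and Itgav lead the order, and the control points lie left of most others, a shift of the whole TPM scale that is described in the text.

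Levels of TPM were used to order genes, for the pairs at 1 TPM in each group and for shares within a library, and no fold change given below is on that scale, since the whole TPM scale of the controls was shifted. The median over genes of log2 TPM minus log2 CPM was -2.17 to -1.38 in the 5 controls and -1.45 to -0.71 in the other 16 libraries. Levels compared between groups below, apart from the shares, are on CPM normalised with TMM factors, and fold changes, standard errors (SE) and p-values come from edgeR. Of the 37 members, 26 passed the filter on low counts; Itgb2, Itgb6, Itga2b, Itga10, Itga11, Itgad, Itgae, Itgal, Itgam, Itgax and Lamc3 did not.

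In the high intensity group the mean levels of laminin β1 and γ1, of β1 integrin and of RGD-binding subunits such as α5 stood above those of the controls, and the γ1 chain passed the threshold of an adjusted p of 0.05. With edgeR, 1 of 26 fitted members was called in high intensity against control (Lamc1, higher), beside 0.462% of all 14730 genes fitted. At an unadjusted p under 0.05, 13 of 26 were higher and 0 lower, where 8.67% of all genes were higher. The fitted change was above 0 for 25 of 26 members, the exception being Lama3, with a median of 0.74 (log2) against 0.003 over all genes. Counted over all 37 by mean CPM, 33 were higher and 3 lower. In the fit of all 26 libraries 0 members were called, beside 6 of all 14907 genes. At an unadjusted p under 0.05, 6 members were higher in that fit, where 5.08% of all genes were.

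Against the same 5 controls, most members of the low intensity group also had a fitted change above 0. With edgeR 0 of 26 members were called in low intensity against control, beside 0.597% of all genes. DESeq2 called 4 members, beside 470 of all 14730 genes, and limma voom 0, beside 1 of all genes. At an unadjusted p under 0.05, 10 of 26 were higher and 0 lower, where 8.57% of all genes were higher. The fitted change was above 0 for 22 of 26 members, with a median of 0.40 (log2) against -0.008 over all genes, and by mean CPM 28 of 37 were higher and 7 lower. In the fit of all 26 libraries 0 members were called, beside 4 of all 14907 genes. At an unadjusted p under 0.05, 6 members were higher in that fit, where 3.37% of all genes were, and 1 was lower (Lama3). The share of all genes that were lower is not given here. The 2 comparisons share their controls, so their resemblance is not independent.

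RNA of other cell types differed between the same groups. The 8 mesenchymal and fibroblast markers, all above 0 in each group and led by Col1a1, Col3a1 and Col1a2, summed to 782 to 2340 CPM at high intensity, 221 to 2500 CPM at low intensity and 311 to 865 CPM in the controls. Of these markers 5 of 8 were higher at an unadjusted p under 0.05 at high intensity and 2 of 8 at low intensity, and 0 were called by edgeR. The sum of the muscle markers was 16.5 to 171 CPM, 6.47 to 142 CPM and 8.46 to 69.3 CPM in the same order, with 7, 8 and 6 of 8 markers above 0 and nearly all of the sum from Des, with the myoblast factor Myod1 at 2.84 CPM in high intensity 2, 4.09 CPM in high intensity 3 and 3.74 CPM in low intensity 5 and at 0 in all controls. The other muscle genes did not all go one way: the mean at high intensity and in the controls was 1.42 and 0.115 CPM for Myh3, 2.34 and 1.32 CPM for Acta1, 0.102 and 0.805 CPM for Myf5 and 0 and 0.187 CPM for Ckm. The motor neuron sum was 373 to 627 CPM at high intensity, 448 to 718 CPM at low intensity and 599 to 866 CPM in the controls. Prph made up most of it, with means of 391, 501 and 535 CPM. The 7 pan-neuronal markers summed to 2820 to 4790 CPM, 3680 to 4820 CPM and 4550 to 5300 CPM in that order. Of these markers 5 of 7 were lower at an unadjusted p under 0.05 at high intensity and 1 of 7 at low intensity. Higher at that p were 8.67% and 8.57% of all genes, while the shares that were lower are not given here. Over all marker lists in these 2 comparisons, edgeR called the epithelial cadherin Cdh1 at high intensity (3.09, adjusted p = 0.042). At low intensity it called the progenitor gene Nes (1.43, adjusted p = 0.0443) and the neuronal gene Elavl4 (-0.59, adjusted p = 0.037). The part of any of these cells in the integrin and laminin levels was not tested, and in bulk RNA fewer cells of a type and less RNA per cell cannot be told apart.

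**Figure D2:**
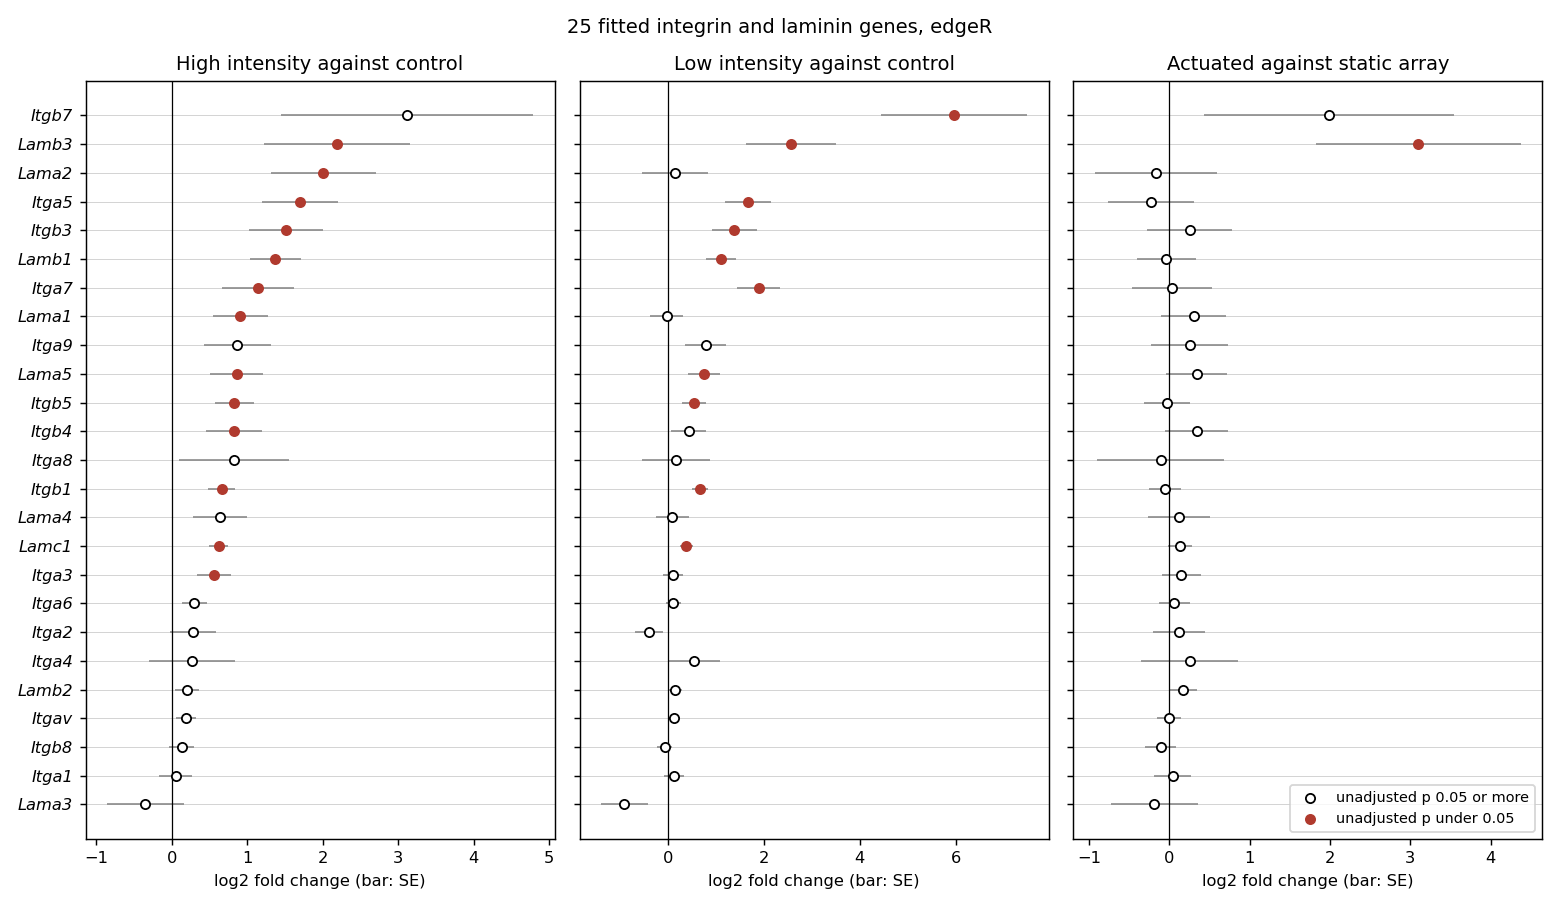
Fitted log2 fold change (point) and SE (bar) of 25 fitted members for high intensity and low intensity, each against control, and for actuated against static array, with filled points for an unadjusted p under 0.05. In the first panel 24 of 25 points lie right of 0 and 13 are filled, in the second 21 and 10, and in the third 16 and 1.

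Lamc1 (ENSMUSG00000026478), the γ1 chain found in most laminins, had 381, 285, 260 and 239 CPM in high intensity 1, 2, 3 and 6 and 190, 209, 172, 192 and 182 CPM in the 5 controls. Low intensity 1 to 5 had 258, 281, 196, 260 and 243 CPM. All 4 high intensity libraries lay above all controls, while low intensity 3 lay among them. Lamc1 rose by 0.62 at high intensity (log2, SE 0.13, 1.54-fold, edgeR adjusted p = 0.042). At low intensity it was 0.39 (SE 0.13, edgeR adjusted p = 0.132), and high against low intensity differed by 0.24 (SE 0.13, edgeR adjusted p = 0.703). The call rests on the choice of libraries: with all 26 the change was 0.81 with an edgeR adjusted p of 0.576. It was also lost in 10 of 21 fits that left out 1 library (high intensity 1, 2 or 3, control 2, 3 or 5, actuated array 1 or 4, static array 1 or 2), with edgeR adjusted p between 0.0149 and 0.128 and a change of 0.47 to 0.71.

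On the arrays, Lamc1 stood at 205, 260, 191 and 196 CPM in actuated array 1 to 4 and at 191, 171 and 224 CPM in static array 1, 2 and 4, and these ranges overlapped. Lamc3, the γ3 chain, reached at most 2.38 CPM in any of the 21 libraries.

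Among the β chains Lamb1 had the larger mean share in both intensity groups, and Lamb2 in the controls and on both arrays. Lamb1 (ENSMUSG00000002900), the β1 chain of embryonic laminins, had 222, 152, 151 and 90.1 CPM in the 4 high intensity libraries and 42.3, 66.9, 68.4, 65.0 and 55.1 CPM in the controls. The low intensity libraries had 143, 138, 47.3, 132 and 181 CPM. All 4 high intensity and 4 of 5 low intensity libraries lay above the controls, with low intensity 3 among them. The fitted change was 1.37 (SE 0.34, 2.59-fold) at high and 1.11 (SE 0.32, 2.16-fold) at low intensity, with edgeR adjusted p of 0.0547 and 0.091, both short of the threshold. At high intensity the call appeared in 3 of 21 fits that left out 1 library (static array 4, low intensity 3 or high intensity 6), with edgeR adjusted p from 0.0242 to 0.179.

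Lamb1 had 43.8, 84.5, 28 and 53.4 CPM on the actuated and 45.7, 28.7 and 87.9 CPM on the static array, with a difference of -0.04 (SE 0.37). Lamb2, the β2 chain known from the neuromuscular synapse, stayed within a narrow range: 73.1, 55.5, 47.8 and 57.9 CPM at high intensity, 73.3, 56.9, 52.5, 49.9 and 51.7 CPM at low intensity and 44.0, 45.2, 63.4, 61.8 and 42.6 CPM in the controls. On the arrays it had 59.8, 61.5, 63.7 and 71.6 CPM (actuated) and 55.6, 54.8 and 60.8 CPM (static). Its groups overlapped in all 3 biochemical conditions. Within a library, Lamb1 made up 65.2% ± 3.52 (SD, n = 4) of the summed β-chain TPM at high intensity, 58.4% ± 11.7 (n = 5) at low intensity, 46.8% ± 10.7 (n = 5) in the controls, 39.2% ± 14 (n = 4) on the actuated and 44.0% ± 13.3 (n = 3) on the static array. The high intensity shares (61.5% to 69.0%) lay above those of the controls (36.3% to 59.9%), a difference that was described only.

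**Figure D3:**
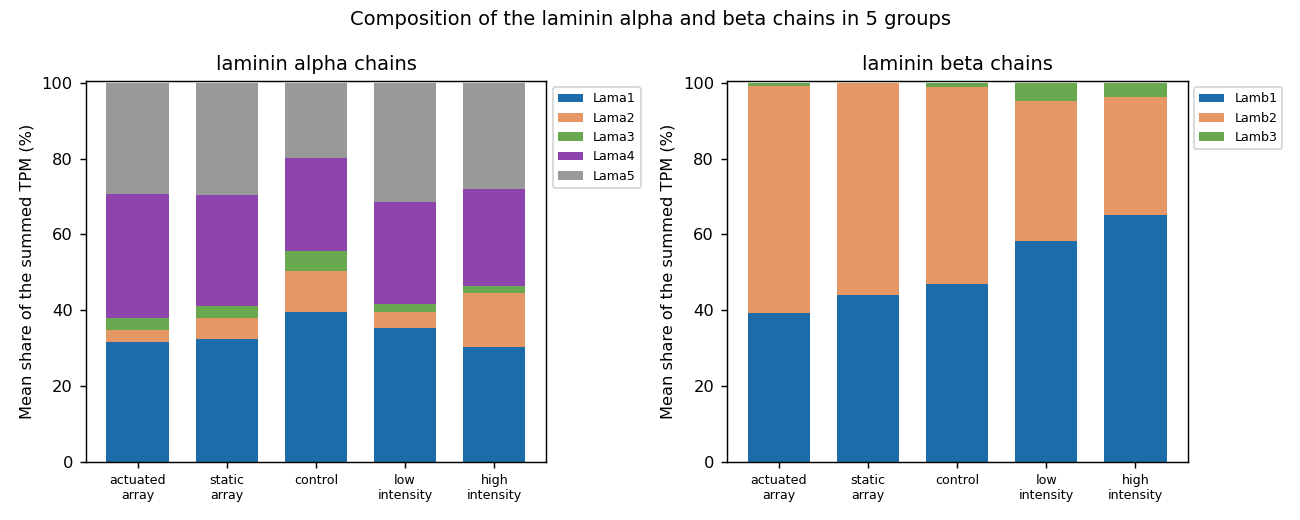
Mean share of each chain in the summed TPM of the laminin α and β chains (y axis, percent) in the 5 groups, with libraries weighted equally. Lamb1 has its largest share at high intensity (65.2%) and its smallest on the actuated array (39.2%).

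Lamb3, the β3 chain of epithelial laminin, was rare and uneven. It had 1.01, 6.08, 13.5 and 2.20 CPM at high intensity, 14.7, 4.12, 1.70, 1.90 and 13.6 CPM at low intensity and 1.15, 0, 1.54, 3.74 and 0 CPM in the controls. On the actuated array it had 1.57, 1.60, 0.331 and 0.489 CPM, and on the static array 0.113, 0.149 and 0 CPM. The biochemical groups overlapped, while in these 21 libraries every actuated one lay above every static one. Static array 3, left out for its depth, had 2 Lamb3 counts, which is 3.26 CPM of its total and above every actuated library. The order of the deeper libraries rests on 36 counts against 3, a ratio of 10.3 whose 95% interval for counting error alone is 3.24 to 52.1. The fitted difference of actuated against static array was 3.10 (SE 1.28, edgeR adjusted p = 1), and the epithelial marker sums beside it were 42.2 to 117 CPM and 19.6 to 109 CPM. With all 26 libraries it was 1.76 (edgeR adjusted p = 1). Static array against control gave -3.38 (SE 1.31, edgeR adjusted p = 0.255), or -1.95 (edgeR adjusted p = 1) with all 26, from 3 against 16 counts, with the control CPM 11.2 times that of the static array (3.20 to 59.8).

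No laminin α chain was called in any comparison. Lama1, the α1 chain of early embryonic basement membrane, had 237, 52.7, 39.2 and 48.8 CPM at high intensity, 45.4, 46.1, 64.4, 59.4 and 37.1 CPM at low intensity and 61.8, 44.9, 40.0, 63.2 and 44.6 CPM in the controls. Apart from high intensity 1, every value at high intensity lay within the control range. The fitted change was 0.91 (SE 0.36) against control and 0.93 (SE 0.36) against low intensity, with edgeR adjusted p of 0.201 and 0.558. Without high intensity 1 the same values were -0.12 (edgeR adjusted p = 0.867) and -0.10 (edgeR adjusted p = 0.979), so the direction turned with that library. On the arrays Lama1 had 30.3 to 53.6 CPM.

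Lama2, the α2 chain of muscle and Schwann cell laminin, had 12.6, 25.1, 15.1 and 15.4 CPM at high intensity, 4.15, 3.75, 0.681, 5.69 and 9.52 CPM at low intensity and 5.75, 2.45, 8.84, 0 and 3.77 CPM in the controls. All 4 high intensity libraries lay above every other biochemical library. On the arrays Lama2 had 6.79, 6.57, 0.883 and 1.47 CPM (actuated) and 2.60, 2.01 and 8.75 CPM (static). High against low intensity differed by 1.84 (SE 0.70, edgeR adjusted p = 0.553) and high intensity against control by 2.01 (SE 0.70, edgeR adjusted p = 0.150). Of the other α chains, Lama5 ranged from 17.3 to 107 CPM over the 21 libraries and was 0.86 (high) and 0.76 (low) above control on the log2 scale, short of the threshold (edgeR adjusted p = 0.218 and 0.266). Lama4, the α4 chain of vascular and mesenchymal laminin, ranged from 5.00 to 44.9 CPM and Lama3 from 1.36 to 7.36 CPM.

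The β1 integrin subunit stood higher in both intensity groups. Itgb1 (ENSMUSG00000025809) had 274, 386, 343 and 240 CPM at high intensity, 307, 433, 234, 263 and 328 CPM at low intensity and 210, 226, 162, 181 and 199 CPM in the controls. All 9 libraries of the intensity groups lay above all 5 controls. The fitted change was 0.66 (SE 0.18, 1.59-fold) at high and 0.68 (SE 0.17, 1.60-fold) at low intensity, with edgeR adjusted p of 0.0718 and 0.0569, neither past the threshold. High and low intensity differed by -0.01 (SE 0.18). With DESeq2 both changes were called (0.67 and 0.68), beside 466 and 470 of all 14730 genes at high and low intensity. In the low intensity comparison edgeR called Itgb1 in 5 of 21 fits that left out 1 library, with adjusted p from 0.0239 to 0.139. On the arrays the values were 198, 266, 174 and 223 CPM (actuated) and 208, 177 and 290 CPM (static), which overlapped.

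**Figure D4:**
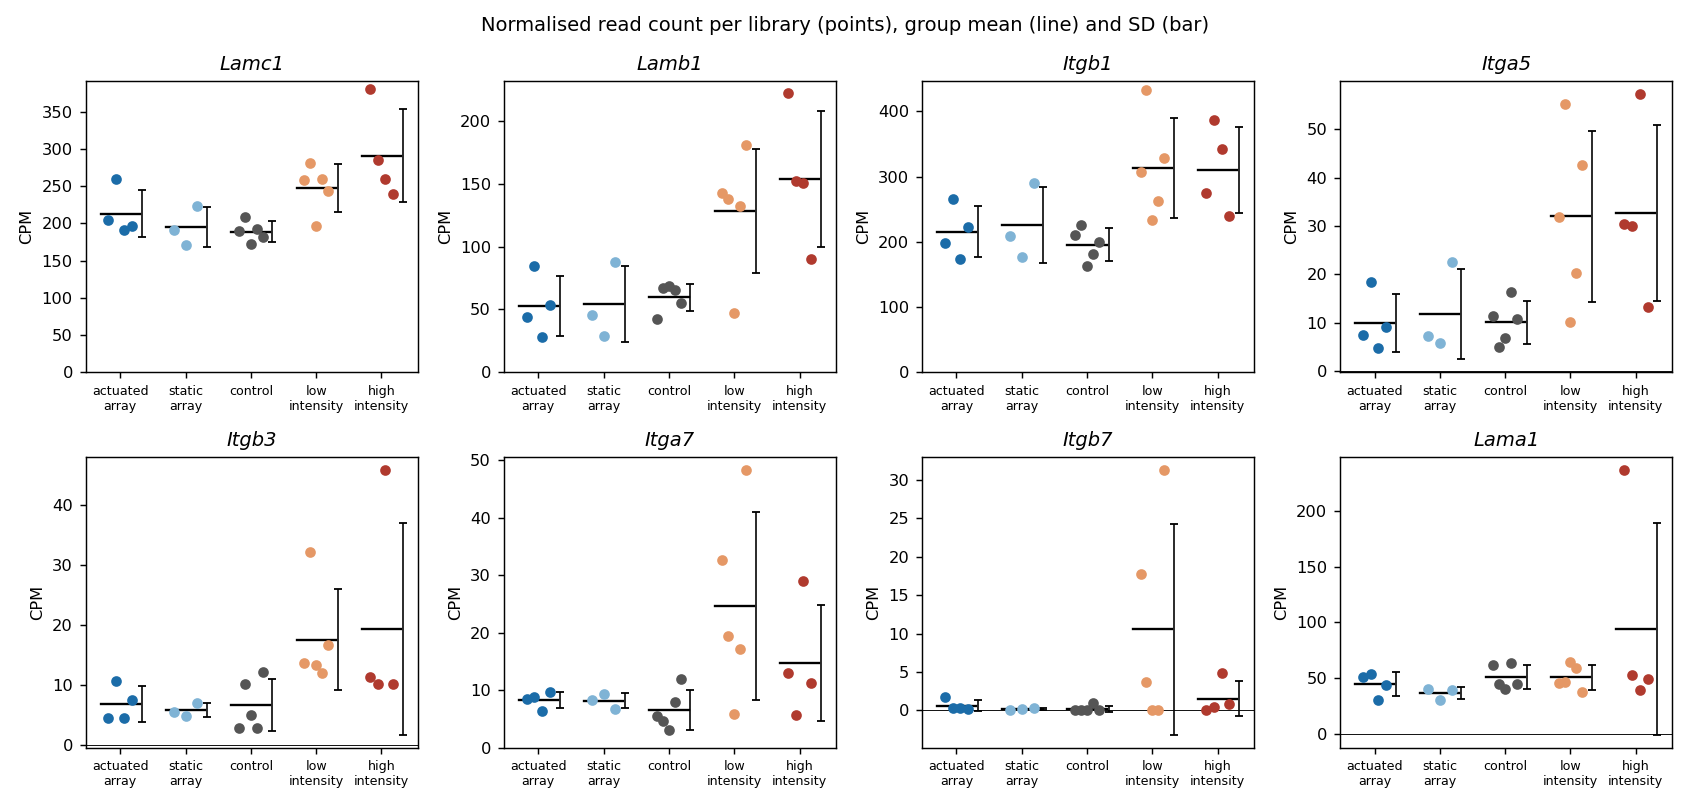
Normalised read count (CPM, y axis from 0 or just below) of 8 members in the 21 libraries (points), with the group mean (line) and SD (bar). The high intensity points of Lamc1, Lamb1 and Itgb1 lie above all control points, while Lama1 at high intensity and Itgb7 at low intensity are carried by 1 and by 3 libraries.

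No fitted β subunit that pairs with αv was called by edgeR in any comparison of the 21 libraries. The β subunits described here apart from Itgb1 were singled out after their values were seen, Itgb5 and Itgb8 excepted. Itgb5 had 57.5, 82.7, 61.7 and 29.8 CPM at high intensity, 41.5, 80.5, 36.8, 47.4 and 32.7 CPM at low intensity and 29.3, 36.4, 21.1, 37.9 and 37.1 CPM in the controls, with array values from 30.5 to 52.7 CPM. High intensity 1, 2 and 3 lay above all controls and high intensity 6 among them, and the change was 0.83 (SE 0.26, edgeR adjusted p = 0.12). Itgb8, whose αv pair activates TGF-β, had 99.6, 147, 92.4 and 128 CPM at high intensity, 128, 87.3, 122, 87.2 and 83.7 CPM at low intensity, 133, 80.3, 136, 97.3 and 85.2 CPM in the controls and 87.1 to 110 CPM on the arrays. Its groups overlapped fully. Itgb3, the β3 subunit, had 11.4, 10.1, 45.8 and 10.2 CPM at high, 13.6, 32.2, 13.3, 12 and 16.7 CPM at low intensity and 2.88, 10.2, 5.00, 2.81 and 12.2 CPM in the controls. The changes were 1.51 (SE 0.49), and 1.39 (SE 0.47), with edgeR adjusted p of 0.126 and 0.143. Without high intensity 3 the first was 0.66 (edgeR adjusted p = 0.64), and high against low intensity turned from 0.12 to -0.73.

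Itgb5 had 36.8, 52.7, 30.5 and 43.4 CPM on the actuated and 36.0, 40.5 and 48.9 CPM on the static array. Itgb8 had 105, 93.0, 89.3 and 87.1 CPM on the actuated and 110, 105 and 88.3 CPM on the static array. For both genes the ranges of the arrays overlapped. Itgb4, the laminin-binding partner of α6 in epithelium and Schwann cells, had 14.7, 20.4 and 26.4 CPM on the static array against 16.1, 4.21, 15.4, 6.08 and 10.4 CPM in the controls, with a difference of 0.96 (SE 0.38, edgeR adjusted p = 0.278).

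Itgb7 had the widest fitted fold of the 26 fitted members at low intensity, and 3 of 5 libraries carried it. It pairs with α4 on lymphocytes. Low intensity 1, 2 and 5 had 17.7, 3.75 and 31.3 CPM, while low intensity 3 and 4 had 0. The controls had 0, 0, 0, 0.936 and 0 CPM, and high intensity had 0, 0.405, 4.91 and 0.826 CPM. The low intensity values come from 166 counts against 2 in the controls, a ratio of 87.7 with a 95% counting interval of 23.9 to 730. The fitted change was 5.97 (SE 1.52, edgeR adjusted p = 0.0599) against control, and high against low intensity was -2.85 (SE 1.28, edgeR adjusted p = 0.612). With 1 library left out the first was 5.01 (without low intensity 5) to 8.81 (without control 5), called in 3 of 21 fits, and the second was -4.64 (without high intensity 3) to -1.89 (without low intensity 5). The 6 immune cell and platelet markers summed to 0.34 CPM in low intensity 5, where Itgb7 was highest, and to 30 CPM in low intensity 3, where Itgb7 was at 0. Of these markers Csf1r reached 29 CPM and Ptprc 1.12 CPM at low intensity, and Gp9 was at 0 in all 21 libraries. Itgb2, the leukocyte β2 subunit, had its highest values in high intensity 3 (10.2 CPM) and low intensity 5 (6.46 CPM). Its partners Itgal, Itgam, Itgax and Itgad were at 0 in low intensity 5, and of them Itgax had 1.23 CPM in high intensity 3. Itgb6 reached at most 2.72 CPM.

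No laminin-binding α subunit was called by edgeR, and Itga3 and Itga6 were more abundant than Itga7. Itga3 had 60.8, 67.7, 94.4 and 46.3 CPM at high intensity, 55.9, 49.1, 33.7, 41.7 and 65.6 CPM at low intensity and 48.6, 41.7, 40.8, 42.6 and 52.7 CPM in the controls. Itga6 had 65.1, 64.0, 50.3 and 65.8 CPM at high intensity, 46.8, 57.7, 57.9, 67.6 and 42.2 CPM at low intensity and 66.7, 30.8, 46.1, 55.2 and 49.8 CPM in the controls. For both genes the biochemical groups overlapped, and the changes at high intensity were 0.56 (SE 0.22), and 0.30 (SE 0.17), with edgeR adjusted p of 0.206 and 0.409. On the actuated array Itga3 had 39.9, 63.6, 33.0 and 39.7 CPM and Itga6 62.4, 63.8, 55.8 and 62.8 CPM. On the static array they had 35.7, 30.9 and 52.5 CPM, and 58.3, 51.8 and 66.3 CPM, again overlapping.

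Itga7 (ENSMUSG00000025348), a laminin receptor prominent in skeletal muscle and in regenerating motor neurons, had 32.6, 19.5, 5.79, 17.1 and 48.3 CPM at low intensity against 5.46, 4.56, 3.08, 7.95 and 11.9 CPM in the controls. At high intensity it had 12.9, 5.68, 29.0 and 11.3 CPM, and on the arrays 8.48, 8.73, 6.40 and 9.77 CPM (actuated) and 8.37, 9.30 and 6.78 CPM (static). Low intensity 3 lay among the controls and the other 4 lay above them. The change was 1.90 (SE 0.45, 3.74-fold) at low and 1.14 (SE 0.48) at high intensity, with edgeR adjusted p of 0.0515 and 0.236, and high against low was -0.76 (SE 0.46, edgeR adjusted p = 0.728). With 1 library left out, edgeR called it in 5 of 21 fits (without low intensity 3 or 4, control 6, or high intensity 2 or 3), with adjusted p from 0.0133 to 0.149. The intermediate filament gene Nes, a marker of neural progenitors also made by myoblasts, was 117 to 601 CPM at low intensity, 126 to 487 CPM at high intensity and 103 to 168 CPM in the controls, and its part in the Itga7 values was not tested.

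Among the RGD-binding α subunits, Itgav was the most abundant and Itga5 stood higher in most libraries of the intensity groups. Itgav had 344, 307, 276 and 290 CPM at high intensity, 341, 328, 255, 279 and 261 CPM at low intensity and 310, 197, 266, 279 and 278 CPM in the controls. It had 291, 319, 387 and 375 CPM on the actuated and 315, 315 and 399 CPM on the static array. The static values lay above all controls, with a difference of 0.37 (SE 0.14, edgeR adjusted p = 0.244), and the actuated and static arrays differed by 0.00 (SE 0.15). Itga5, the fibronectin receptor subunit, which was singled out after its values were seen, had 30.5, 30.0, 57.2 and 13.2 CPM at high and 31.8, 55.1, 10.2, 20.2 and 42.5 CPM at low intensity. The controls had 11.5, 4.91, 6.92, 16.4 and 10.7 CPM. High intensity 6 and low intensity 3 lay among the controls and the other 7 libraries above them. The changes were 1.70 (SE 0.50, 3.24-fold), and 1.68 (SE 0.48, 3.20-fold), with edgeR adjusted p of 0.101 and 0.0851. DESeq2 called both, beside 466 and 470 of all 14730 genes.

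Low intensity 3 and high intensity 6 were the lowest libraries of their groups for Lamc1, Lamb1, Itgb1 and Itga5, but not for every member. At high intensity Itga6 was highest in library 6 (65.8 CPM) and Itga7 lowest in library 2 (5.68 CPM). The mesenchymal marker sums of low intensity 3 and high intensity 6 were 221 CPM, the lowest of the low intensity group, and 782 CPM, the lowest of the high intensity group. Low intensity 1, 2, 4 and 5 had 285, 2500, 662 and 1010 CPM of these markers, and high intensity 1, 2 and 3 had 1900, 2340 and 1050 CPM. Whether the members follow these sums was not tested. Itga8 ranged from 0 to 11.6 CPM and Itga2b, the platelet αIIb subunit, from 0 to 2.62 CPM over the 21 libraries.

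**Figure D5:**
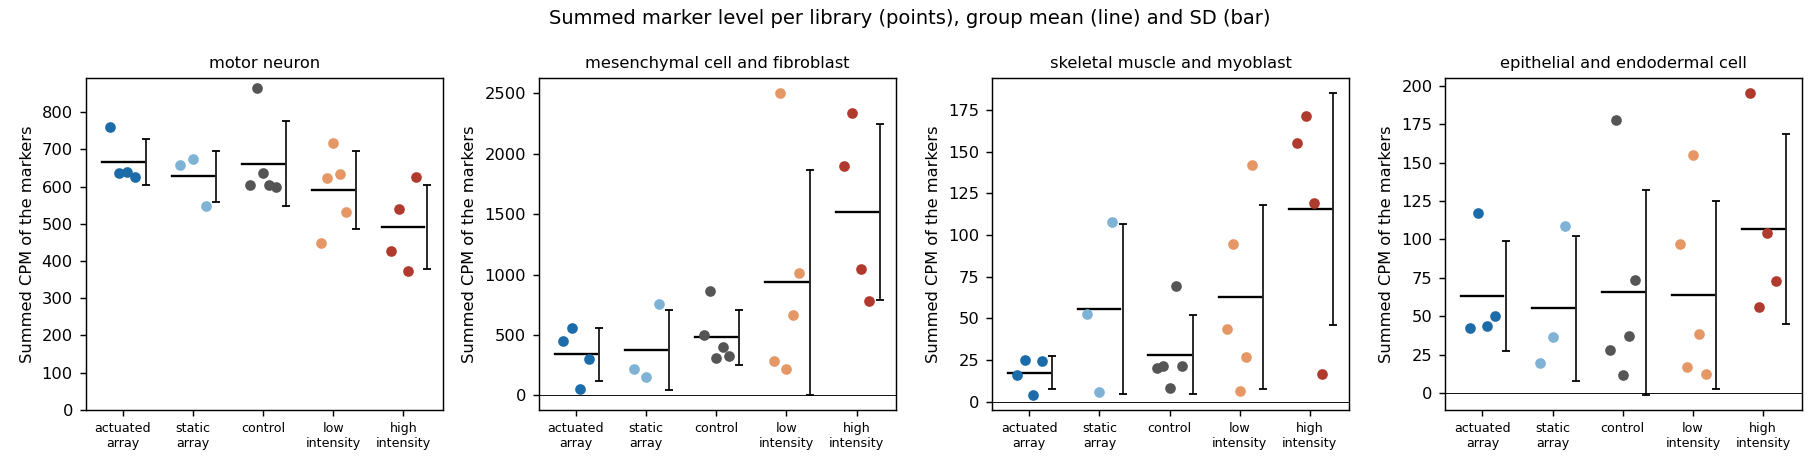
Summed CPM of the markers of 4 cell types (y axes) in the 21 libraries (points), with the group mean (line) and SD (bar). The mesenchymal sum is 782 to 2340 CPM at high intensity and 311 to 865 CPM in the controls, and the motor neuron sum is lowest in high intensity 3 (373 CPM).

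Values of the collagen-binding and of the α4 and α9 subunits overlapped between the groups. Itga1 had 56.5, 44.6, 42.1 and 48.8 CPM at high intensity, 34.3, 61.1, 56.5, 52.5 and 51.7 CPM at low intensity and 36.8, 26.3, 73.1, 53.3 and 43.5 CPM in the controls. On the arrays it had 49.1, 54.7, 43.5 and 48.1 CPM (actuated) and 50.3, 37.2 and 55.3 CPM (static). Itga2 ranged from 5.44 to 40.8 CPM, and high against low intensity gave 0.66 (SE 0.30, edgeR adjusted p = 0.62). Itga9, a receptor for tenascin and osteopontin, had 28, 32, 13.5 and 9.64 CPM at high, 13.6, 50.2, 8.86, 12.6 and 12.6 CPM at low intensity and 6.90, 8.41, 6.54, 19.7 and 15.7 CPM in the controls. It had 20.1, 14.9, 11.5 and 16.1 CPM on the actuated and 11.2, 12.3 and 16.0 CPM on the static array. All its groups overlapped. Itga4 ranged from 2.31 to 22.8 CPM, Itga10 from 0 to 3.03 CPM, Itga11 from 0 to 3.74 CPM, and Itgae, Itgal and Itgam reached 0.580, 0.632 and 2.84 CPM.

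Moved and still arrays gave no member past the threshold. In actuated against static array edgeR called 0 of 26 members, beside 0% of all genes. DESeq2 and limma voom called 0 members, beside 2 and 0 of all 14730 genes. At an unadjusted p under 0.05, 1 member was higher (Lamb3), where 0.17% of all genes were higher, and 0 were lower. The change was above 0 for 17 of 26, with a median of 0.12 against 0 over all genes. The SE of the members' changes was 0.15 for Itgav and Lamc1 and 0.20 for Itgb1, and 1.28 for Lamb3, so differences in the abundant members were bounded more tightly than those in the rare ones. All 26 libraries gave 0 members at an unadjusted p under 0.05 in either direction.

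High and low intensity were set against each other directly. With edgeR 0 of 26 members were called, beside 0% of all genes. DESeq2 and limma voom called 0 members, beside 41 and 0 of all 14730 genes. At an unadjusted p under 0.05, 3 members were higher at high intensity (Lama2, Lama1 and Itga2) where 3.62% of all genes were, and 1 was lower (Itgb7) where 4.06% were. The median change was 0.15 against 0.012 over all genes. Without high intensity 1, 1 member was higher, and the share of all genes was not taken in that fit.

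The static array was compared with the biochemical controls, which differ from it in the platform, and the labels do not say in what else. With edgeR 0 of 26 members were called, beside 0.713% of all genes. DESeq2 and limma voom called 0 members, beside 380 and 151 of all 14730 genes. At an unadjusted p under 0.05, 2 members were higher (Itgav and Itgb4) where 6.1% of all genes were, and 1 was lower (Lamb3) where 6.46% were. The median change of the members was 0.06 against -0.003 over all genes. Read against those shares, the counts of members are near those of all genes. Cell type markers differed here too: edgeR called the motor neuron marker Slc5a7, lower on the static array (-1.88, adjusted p = 0.00392). At an unadjusted p under 0.05, 3 of 7 motor neuron markers were lower and 0 higher. Of the progenitor and glia markers 4 of 8 were higher and 0 lower. Their part in the member levels was not tested.

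Of 30 listed adhesion genes, which link integrins to the cytoskeleton, 28 were fitted, and 10 were higher and 1 lower at an unadjusted p under 0.05 at high intensity, with 0 called by edgeR. At low intensity 11 were higher and 1 lower, with 1 called. The shares of all genes that were higher are the 8.67% and 8.57% given above, and the shares that were lower are not given here. That gene was Fermt2, the kindlin that activates β1 integrin, with 174 ± 11.5 CPM (SD, n = 5; 160 to 190) against 116 ± 25.4 CPM (n = 5; 75.3 to 144) in the controls, groups that did not overlap. Fermt2 rose by 0.58 (SE 0.13, edgeR adjusted p = 0.0383), and with all 26 libraries it was 0.45 (edgeR adjusted p = 1). With 1 library left out the call was lost in 9 of 21 fits (actuated array 1 or 4, static array 2, low intensity 1, 2 or 5, control 1, 2 or 3), at edgeR adjusted p of 0.0262 to 0.12. Both arrays also lay above the controls (161 to 207 CPM on the actuated, 150 to 196 CPM on the static array), and static array against control gave 0.56 (SE 0.15, edgeR adjusted p = 0.0694). The other genes of highest TPM in that list were Fyn (203 ± 36.5, 263 ± 29.6 and 250 ± 18.6 CPM at high and low intensity and in the controls) and Tln1, the talin that joins β tails to actin (212 ± 87.2, 195 ± 85.5 and 102 ± 22.6 CPM). Tln1 changed by 1.05 (SE 0.28), and 0.94 (SE 0.26), with edgeR adjusted p of 0.0714 and 0.0796, short of the threshold. On the arrays 0 adhesion genes were called, and 0 passed an unadjusted p under 0.05 in either direction in actuated against static array.

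Of 30 listed basement membrane partners and other integrin ligands 28 were fitted. At high intensity 12 were higher and 1 lower at an unadjusted p under 0.05, with 1 called by edgeR. At low intensity 8 were higher and 1 lower, with 0 called. The shares of all genes that were higher are again 8.67% and 8.57%, and those that were lower are not given here. The called gene was Nid2, which links laminin to collagen IV, with 35.2 ± 21.3 CPM (SD, n = 4; 12.9 to 63.8) at high intensity against 9.89 ± 1.56 CPM (n = 5; 7.83 to 11.8) in the controls. The Nid2 groups did not overlap, and Nid2 rose by 1.83 (SE 0.41, edgeR adjusted p = 0.0435), or 2.31 (edgeR adjusted p = 0.0388) with all 26 libraries. The call was lost with limma voom (1.69, adjusted p = 0.357), with the 2 groups alone (edgeR adjusted p = 0.0707) and with the replicate block (edgeR adjusted p = 0.0787). It was also lost in 14 of 21 fits that left out 1 library (any actuated array or control library, static array 1 or 2, high intensity 1, 2 or 3), with a change of 1.36 to 2.12 and edgeR adjusted p of 0.0147 to 0.149. The most abundant genes of that list were Sparc, Fn1 and Col4a1. Sparc, a matricellular protein of basement membranes, had 406 ± 88.1, 374 ± 178 and 210 ± 21.7 CPM at high and low intensity and in the controls (edgeR adjusted p = 0.0538 and 0.061). Fn1, the ligand of α5β1, had 723 ± 253, 786 ± 355 and 349 ± 59.3 CPM (edgeR adjusted p = 0.131 and 0.0818). Col4a1 had 528 ± 306, 354 ± 238 and 238 ± 83.7 CPM (edgeR adjusted p = 0.213 and 0.578). Mesenchymal cells make all 3, and the marker sums given above stood beside them; their part was not tested.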

How the data were processed

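Total RNA of 26 spheroid libraries was sequenced with a low-input kit and paired reads of 50 bases, per the labels' protocols. The authors deposited estimated counts, written as whole numbers and not scaled for depth, and TPM values that sum to 1000000 in each library. The submitters' processing notes name Salmon, STAR, BWA 0.7.12-r1039 and bedtools 2.25.0 and the builds mm10, hg19 and GRCm39, with no role or order. Column names in the tables shorten LI and HI of the labels to L and H and were matched to them on that basis. How reads were assigned to strands or to near-identical copies is not given in the sources used here.

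Counts were fitted with edgeR 4.0.16 (R 4.3.3): filterByExpr, TMM scaling, 1 coefficient per group and the quasi-likelihood F-test, adjusted by Benjamini-Hochberg over 14730 genes. Libraries with at least 1000000 counts on protein-coding genes (21) entered the main fit, and all 26 were an alternative. The others were limma 3.58.1, DESeq2 1.42.0, other filters, scalings and thresholds, a replicate block, log2(TPM + 1) and log2(TPM + 0.1), and each library left out. On simulated counts the edgeR script was checked for recovery of known changes. Libraries were compared in 325 pairs by chi-square per degree of freedom (4.74 to 646), and none were merged.

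Values per library were printed for the 12 members of highest TPM and for members called or among the 2 smallest p-values of a comparison, with those called and the 3 most abundant genes of each pathway list. The members and lists were chosen with earlier results of these data known. Gene sequences are RefSeq's. Protein sequences were not used here. The values of 1 member are not reported here, and it stays in the counts over all members.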

Additional observations from a re-analysis of the deposited data

Results flagged for a closer look

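In groups of 4 or 5 libraries, the highest or lowest library was set against the spread of the rest by Dixon's criterion. Of 100 groups examined, 9 were flagged, and chance flags about 1 in 20. Lama1 in high intensity 1 stood at 237 CPM, with the next library at 52.7 CPM. In the same library Lama3 stood at 7.06 CPM, with the next at 3.24 CPM. Itgb3 stood at 45.8 CPM in high intensity 3, with the next at 11.4 CPM, and at 32.2 CPM in low intensity 2, with the next at 16.7 CPM. Itga9 stood at 50.2 CPM in low intensity 2, with the next at 13.6 CPM. Itga6 was lowest in high intensity 3 at 50.3 CPM, with the next library at 64.0 CPM.

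Itgb7 was flagged in 3 groups, at 1.70 CPM in actuated array 1 (next 0.331 CPM), at 4.91 CPM in high intensity 3 (next 0.826 CPM) and at 0.936 CPM in control 5 (next 0). The last of these rests on 2 counts, and with the other controls at 0 any count there would have been flagged.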

How the results depend on the processing

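Counts of calls depended on the processing, for all genes as for members, and the cause was not tested. Of all genes at high intensity against control, 68 were called in the main fit and 6 with all 26 libraries. Limma voom called 0, the replicate block 2, DESeq2 466, no filter 700 of 37248, and the TPM scales 2324 and 2292. At low intensity the numbers in the same order were 88, 4, 1, 8, 470, 660, 5440 and 5537. At high intensity against control, the 1 member called became 0 with all 26 libraries, limma voom, the replicate block or a threshold of 0.01. It became 3 at a threshold of 0.1, 4 with DESeq2, 9 with no low-count filter, and 11 and 10 on log2(TPM + 1) and log2(TPM + 0.1). The counts of all genes at thresholds of 0.1 and 0.01 were not taken, here or for the gene lists below. At low intensity, the 0 members called became 1 without mitochondrial and rRNA genes, beside 92 of all 14747 genes. They became 2 with a filter of 1 CPM in 4 libraries, beside 102 of all 17576 genes. Other settings gave 4 with DESeq2, 5 at 0.1, 7 with no filter, and 15 and 16 on the TPM scales. High against low intensity gave 1 with no filter, beside 126 of all 37248 genes. Static array against control gave 2 and 3 on the TPM scales, beside 1091 and 1145 of all 14730 genes. Members at an unadjusted p under 0.05 and higher (1, 13, 10, 3 and 2 for actuated against static, high and low against control, high against low and static against control) became 0, 6, 6, 0 and 1 with all 26 libraries. The shares of all genes in that fit were 0.047%, 5.08%, 3.37%, 2.29% and 4.61%. On the TPM scales the member counts became 0 and 0, 21 and 20, 16 and 17, 1 and 1, and 6 and 7. For these scales and the settings that follow, the shares of all genes at an unadjusted p were not taken. These counts therefore cannot be read as a result about the members. With only the 2 groups fitted, actuated against static gave 0 and high against low 1. With limma voom, high against control gave 5 and static against control 1, and with no filter high against low gave 6 and static against control 4. Deviations from the group mean correlated at -0.225 to 0.182 between same-numbered libraries. Differently numbered libraries were not correlated for comparison, so whether the replicate numbers pair libraries cannot be told from these values. With the replicate block, high against low gave 5 and static against control 1, and the calls in high against control (1 member, 1 ligand gene) and low against control (1 adhesion gene) became 0. The TPM fits shift the median of all genes against control by 0.53 (high), 0.64 (low) and 0.50 (static) on log2(TPM + 1) and by 0.64, 0.75 and 0.62 on log2(TPM + 0.1).

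Adhesion genes called at high intensity (0) became 1 with the 2 groups alone, beside 17 of all 13091 genes. They became 5 with DESeq2 or at 0.1, 7 with no filter, and 13 and 12 on the TPM scales. At low intensity the 1 became 0 with all 26 libraries, limma voom, the 2 groups alone, the replicate block or 0.01, 3 with DESeq2, 5 at 0.1, 7 with no filter, and 18 and 19 on the TPM scales. On the static array the 0 became 1 with DESeq2 or at 0.1, 2 with no filter, and 5 and 6 on the TPM scales. Ligand genes called at high intensity (1) became 0 with limma voom, the replicate block or 0.01. They became 2 with the 1 CPM filter (69 of all 17576 genes) and 3 without mitochondrial and rRNA genes (77 of all 14747). The 2 groups alone gave 4 (17 of all 13091), DESeq2 6, a threshold of 0.1 7, no filter 12, and the TPM scales 11 and 9. At low intensity the 0 became 3 with DESeq2, 5 at 0.1, 12 with no filter and 15 on both TPM scales. With no filter, 1 was called on the actuated, 4 in high against low and 2 on the static array, beside 40, 126 and 459 of all 37248 genes. The 2 groups alone gave 1 on the static array, beside 42 of all 13335 genes.

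With each library left out in turn, members called ranged from 0 to 5 at high and at low intensity, and stayed at 0 in the 3 other comparisons. The 5 at high intensity came without high intensity 6, beside 397 of all 14694 genes. The 5 at low intensity came without low intensity 3, beside 264 of all 14692 genes. Members at an unadjusted p under 0.05 and higher ranged over 0 to 2, 10 to 14, 9 to 11, 1 to 5 and 0 to 3 in the order above. The shares of all genes at that p were not taken in these fits. Adhesion genes called ranged over 0 to 5 at high, 0 to 4 at low intensity and 0 to 1 on the static array, and ligand genes over 0 to 6 and 0 to 5 at high and low intensity. Lama1 at high intensity ranged from -0.12 to 1.16 against control and from -0.10 to 1.18 against low intensity, with both lowest values without high intensity 1. Of 411 alternative values for 32 gene results (each other setting, and of the leave-outs only the lowest and the highest change), 335 kept direction and side of the threshold and 69 passed it. The call of Lamc1 at high intensity was lost in 5 of them (all 26 libraries, limma voom, the 2 groups alone, the replicate block and the lowest leave-out value), beside the 10 of 21 leave-outs given above, and 2 reversed (Lama1, lowest leave-out value). Depth limits the rare members most: in the biochemical arm 0 counts allow up to 1.93 CPM.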
